A study of Mus musculus with 8 samples.

Results

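The nuclear receptor genes encode a family of transcription factors, and 44 of them were followed here through the peak lists of mouse fibroblasts early in reprogramming. They were taken as a fixed list of gene symbols, and each was given the span of its GENCODE gene body in the mouse genome build mm10 plus 20 kb on either side, which is called its locus. They are 44 of 21938 protein-coding genes on the autosomes and sex chromosomes, and their loci cover 6.45 Mb once overlaps are counted a single time. The gene bodies are long, with a median of 46.8 kb against 17.4 kb over all protein-coding genes, and 11 of the 44 exceed 100 kb. The loci of Thra and Nr1d1 overlap, as do those of Nr5a1 and Nr6a1, so a peak in the overlap is counted for both genes in values by gene or by receptor group, and a single time in totals over all loci. Loci can also reach into neighbouring genes, which are named where a peak lay nearer to one of them.

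Mouse embryonic fibroblasts (MEFs) carrying the OG2 allele, a reporter that makes green fluorescent protein under Oct4 control, were transduced with retroviruses and cultured in the iCD3 medium to day 5. Both arms received Oct4. In the NanogWT arm, labelled Nanog+Oct4, the second factor was FLAG-tagged wild-type Nanog, and in the NanogBiD arm, labelled NanogN70+Oct4, it was FLAG-tagged Nanog with the BRG1-interacting domain of SS18 at its N-terminus. The name NanogBiD for that arm was taken from the study's text. CUT&Tag, in which an antibody tethers a transposase to its target so that the DNA nearby is cut out and sequenced, was run in each arm with antibodies to 4 targets. These were the FLAG tag, BRG1 (the ATPase of the BAF remodelling complex), H3K27ac (a mark of active promoters and enhancers) and H3K4me1 (a mark of enhancers and promoter flanks), which gave 8 libraries with 1 merged library per group. The fusion was built to bring the BAF complex to sites bound by NANOG, and the comparison of arms asks how far FLAG, BRG1 and the 2 marks differ at the nuclear receptor loci.

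Most nuclear receptors have a zinc-finger domain that binds DNA, which Nr0b1 and Nr0b2 lack, and a pocket for a small lipid-soluble ligand such as a steroid, a retinoid, a thyroid hormone or a fatty acid. Without ligand many of them hold corepressors at their sites, and with ligand they exchange these for coactivators. Several are known from pluripotency and its exit: Esrrb and Nr5a2 act in the pluripotent network, Nr0b1 (DAX1) is a marker of naive cells, and Nr6a1 (GCNF) and Nr2f2 (COUP-TFII) repress Oct4 as cells differentiate. Retinoic acid, acting through the retinoic acid receptors, drives differentiation of stem cells.

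Peaks are intervals where the tag density passed the significance score of the peak caller, and the summit height is the number of tags piled up at the highest point of a peak. Neither was scaled to the depth of the library, which is unknown, so a deeper library can hold more peaks and higher summits. With 1 merged library per group no spread between cultures can be given and no test between arms was made. Intervals on ratios are 95% intervals from the exact binomial distribution and cover counting error only. The full lists held 30859 to 74782 peaks, and the ratio of NanogBiD to NanogWT was 1.27 in FLAG, 1.74 in BRG1, 1.2 in H3K27ac and 0.791 in H3K4me1. Of 12 fibroblast marker promoters (within 2 kb of a transcription start), 11 had an H3K27ac peak in both arms, Prrx1 being without one. Of 8 pluripotency marker promoters none had one in NanogWT and 1, Tdgf1, had one in NanogBiD, with Nr0b1, itself a nuclear receptor gene, among those without. For epithelial markers the counts were 0 and 1 of 4, for blood markers 2 and 3 of 4, for endothelial markers 0 and 2 of 3 and for neural markers 0 and 2 of 3, in NanogWT and NanogBiD. The part of other cell types in the differences below was not tested.

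Nuclear receptor loci held more FLAG, BRG1 and H3K27ac peaks and fewer H3K4me1 peaks in NanogBiD than in NanogWT, in proportions close to those of protein-coding loci in general. FLAG peaks at these loci numbered 227 in NanogWT and 290 in NanogBiD, and the ratio was 1.28 (1.07 to 1.53), where all protein-coding loci had 1.24. BRG1 peaks numbered 141 and 224, a ratio of 1.59 (1.28 to 1.98), where all protein-coding loci had 1.56. H3K27ac peaks numbered 144 and 181, a ratio of 1.26 (1.0 to 1.58), beside 28267 and 32767 over protein-coding loci. H3K4me1 went the other way, with 300 and 250 peaks and a ratio of 0.833 (0.702 to 0.989) beside 0.798. Among the 20000 highest-scoring peaks of each list this direction turned, with an H3K4me1 ratio of 1.09 (0.79 to 1.52) and a BRG1 ratio of 0.878 (0.641 to 1.2). Peaks were denser at nuclear receptor loci than at protein-coding loci as a whole in both arms. There were 21.9 and 34.7 BRG1 peaks per Mb, against 17.4 and 27.2 over all protein-coding loci, and 35.2 and 45.0 FLAG peaks per Mb, against 29.3 and 36.3.

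The ratio for BRG1 depended on where the peaks lay. Within 2 kb of a start site, BRG1 peaks numbered 71 and 78 in the respective arms, a ratio of 1.1 (0.786 to 1.54). Away from start sites they numbered 70 and 146, a ratio of 2.09 (1.56 to 2.81). The whole lists had the same arrangement, 1.19 at promoters and 2.19 elsewhere, so the nuclear receptor loci followed the genome in this respect. For FLAG the ratio was 1.14 (0.832 to 1.58) at promoters and 1.34 (1.08 to 1.67) elsewhere. The whole FLAG lists had 1.11 and 1.33. For H3K27ac it was 1.24 (0.896 to 1.71) at promoters and 1.28 (0.928 to 1.76) elsewhere, where the whole lists had 1.09 and 1.29. Where each list was cut to its 20000 highest-scoring peaks, distal BRG1 peaks numbered 38 and 43 (ratio 1.13, 0.714 to 1.8) and promoter BRG1 peaks 52 and 36 (ratio 0.692), or 90 and 79 in sum. That limit sets both lists to the same length, and under it 17.2% of protein-coding loci had more and 40.4% fewer BRG1 peaks in NanogBiD. With a score of at least 100 required, distal BRG1 peaks numbered 22 and 65, a ratio of 2.95 (1.8 to 5.03). Some ratios of other targets turned. The promoter ratio of FLAG was 0.853 among the 20000 highest-scoring peaks and 0.964 with a score of at least 100. In the ranked lists the distal ratio of H3K27ac was 0.964, and the promoter ratio of H3K4me1 was 1.35 where the full lists had 0.87. The other FLAG, H3K27ac and H3K4me1 ratios kept their direction in these settings.

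**Figure D1:**
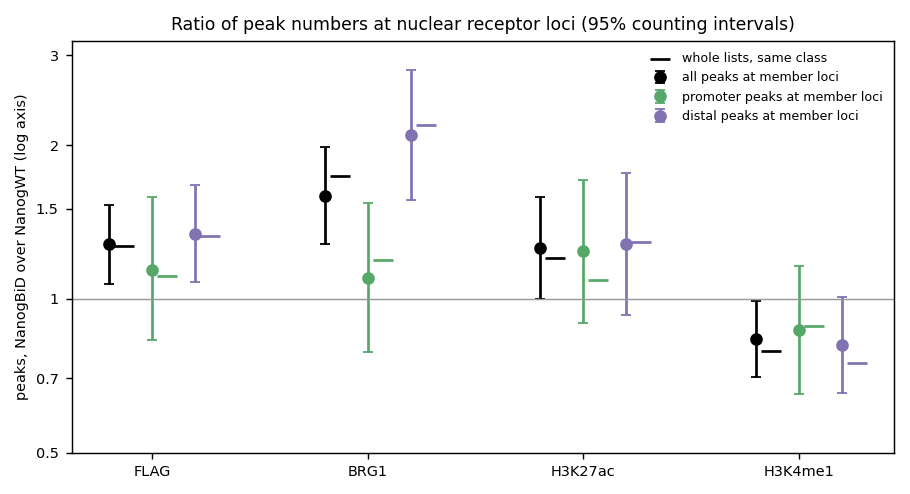
Ratio of peak numbers, NanogBiD over NanogWT, for FLAG, BRG1, H3K27ac and H3K4me1 at the 44 nuclear receptor loci, on a log axis. Points are ratios for all, promoter and distal peaks with bars for 95% counting intervals, and short dashes are the same classes over the whole lists. Distal BRG1 peaks stand highest at 2.09 and H3K4me1 lies below 1 in all 3 classes.

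Counted gene by gene, 25 of the 41 nuclear receptor loci with a FLAG peak had more FLAG peaks in NanogBiD and 5 had fewer, which is 61.0% and 12.2%, where 50.2% and 17.6% of protein-coding loci with a FLAG peak did. For BRG1, 22 of 41 had more and 7 fewer, or 53.7% and 17.1%, beside 53.2% and 12.7% of protein-coding loci, so the share with more BRG1 was that of the background. For H3K27ac, 22 of 41 had more and 3 fewer, or 53.7% and 7.32%, beside 37.4% and 17.4%. For H3K4me1, 8 of 44 had more and 23 fewer, or 18.2% and 52.3%, again near the background of 19.7% and 51.6%. In the full lists the H3K27ac counts stood farthest from the background, but not under every setting. They came to 13 more and 4 fewer of 38 with a score of at least 100, beside 25.8% and 14.0% of protein-coding loci. Among the 20000 highest-scoring peaks they came to 8 and 8 of 37, beside 17.6% and 19.1%, and with heights of at least 15 tags to 11 and 2 of 35, beside 30.1% and 13.7%. For BRG1 the direction turned among the 20000 highest-scoring peaks, with 4 more and 15 fewer of 37 beside 17.2% and 40.4%, and for H3K4me1 it also turned, with 16 more and 13 fewer of 40 beside 33.5% and 25.3%. For FLAG it held at member loci, with 13 more and 7 fewer of 33, but not over protein-coding loci, with 24.3% and 29.8%. FLAG had 17 more and 6 fewer of 39 with a score of at least 100, beside 41.0% and 17.3%. With heights of at least 15 tags it had 25 and 4 of 39, beside 52.2% and 13.4%.

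**Figure D2:**
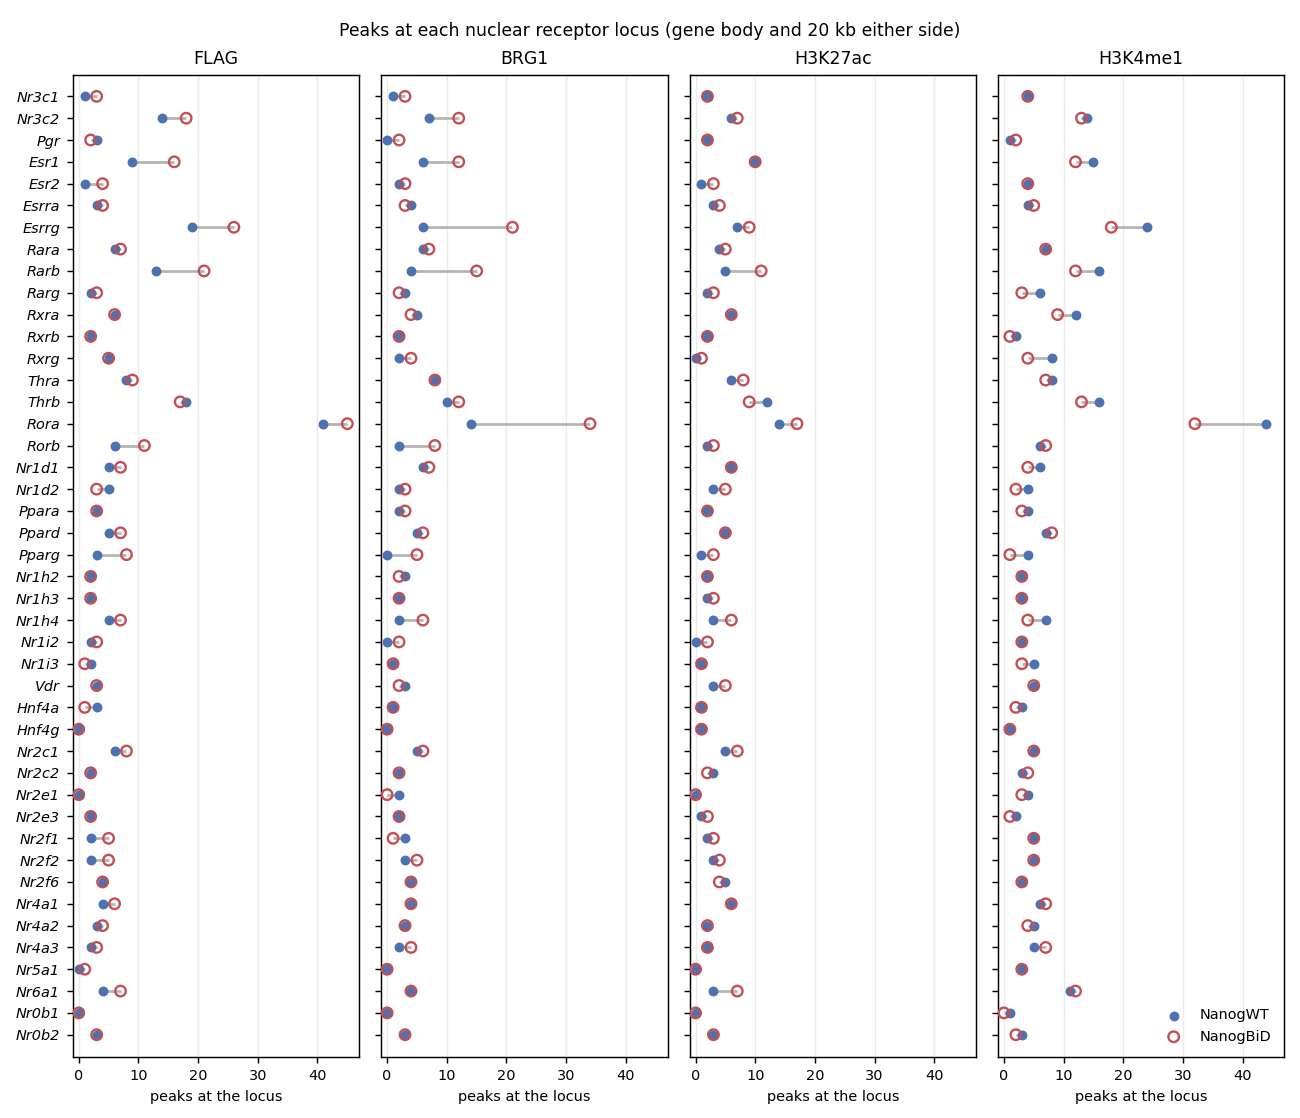
Number of FLAG, BRG1, H3K27ac and H3K4me1 peaks at each of the 44 nuclear receptor loci, ordered by receptor group, with NanogWT as filled and NanogBiD as open circles joined by a line. Rora (14 and 34), Esrrg (6 and 21) and Rarb (4 and 15) stand out for BRG1, and most other loci hold fewer than 10 peaks of any target.

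The BRG1 numbers differed between longer and shorter members in a split at 100 kb that was chosen after values were seen. The 11 members longer than 100 kb, which are Rora, Esrrg, Esr1, Rarb, Thrb, Nr3c2, Nr6a1, Rorb, Hnf4g, Pparg and Nr3c1, held 54 and 126 BRG1 peaks, a ratio of 2.33 (1.68 to 3.27) where protein-coding genes of that length had 1.87. Of the 10 with a BRG1 peak, 9 (90.0%) had more in NanogBiD and 0 fewer, and 84.8% of protein-coding genes of that length with a BRG1 peak also had more. The other 33 members held 87 and 98, a ratio of 1.13 (0.835 to 1.52) where the protein-coding genes of that length had 1.36, and of the 31 with a BRG1 peak 13 (41.9%) had more and 7 fewer, where 48.1% of such protein-coding genes with a BRG1 peak had more. For H3K27ac the ratio was 1.25 (0.889 to 1.77) in the long members, where protein-coding genes of that length had 1.2, and 1.26 (0.931 to 1.71) in the shorter ones, where they had 1.13. Loci with more H3K27ac peaks were 7 of 11 long members (63.6%, beside 57.4%) and 15 of the 30 shorter ones with a peak (beside 34.1%).

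Among the steroid hormone receptors, which bind cortisol, aldosterone, progesterone and oestrogens, BRG1 peaks summed to 16 and 32 and all 5 members held more in NanogBiD. More was also the usual case among protein-coding loci (53.2%, and 84.8% of those over 100 kb), and Esr1, Nr3c1 and Nr3c2 exceed that length. At Esr1 (chr10:4611593-5005614), the oestrogen receptor alpha gene, there were 9 FLAG peaks in NanogWT and 16 in NanogBiD, 6 and 12 for BRG1, 10 and 10 for H3K27ac, and 15 and 12 for H3K4me1. The highest BRG1 summit at Esr1 stood at 13 tags in NanogWT and 31 in NanogBiD. Nr3c2, the mineralocorticoid receptor gene, had 14 and 18 FLAG peaks, 7 and 12 BRG1, 6 and 7 H3K27ac, and 14 and 13 H3K4me1. Nr3c1, the glucocorticoid receptor gene on chromosome 18, had 1 and 3 FLAG peaks, 1 and 3 BRG1, 2 and 2 H3K27ac, and 4 and 4 H3K4me1. The progesterone receptor gene Pgr had no BRG1 peak in NanogWT and 2 in NanogBiD, at heights of 9 and 12 tags, while its FLAG peaks numbered 3 and 2. Its higher BRG1 summit lay 38.2 kb into the gene, where the FLAG summit was 14 tags in NanogWT and 26 in NanogBiD. Esr2, the oestrogen receptor beta gene, had 1 and 4 FLAG peaks, 2 and 3 BRG1, 1 and 3 H3K27ac, and 4 and 4 H3K4me1.

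The oestrogen-related receptors are orphans that act on energy metabolism and whose other member, Esrrb, is not among the 44. Esrrg (chr1:187608791-188214885) had 19 and 26 FLAG peaks, 6 and 21 BRG1, 7 and 9 H3K27ac, and 24 and 18 H3K4me1 in NanogWT and NanogBiD, and its highest BRG1 summit stood at 21 and 34 tags. Esrra, a short gene, had 3 and 4 FLAG peaks, 4 and 3 BRG1, 3 and 4 H3K27ac, and 4 and 5 H3K4me1. The difference in this pair was thus carried by Esrrg for BRG1.

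Of the retinoic acid receptors, Rarb differed between the arms in all 4 targets, and Rara and Rarg by at most 1 peak in any target other than H3K4me1. Rarb (chr14:16430839-16819156), itself a well known target gene of retinoic acid, had 13 and 21 FLAG peaks, 4 and 15 BRG1, 5 and 11 H3K27ac, and 16 and 12 H3K4me1. Rara had 6 and 7 FLAG peaks, 6 and 7 BRG1, 4 and 5 H3K27ac, and 7 H3K4me1 in both arms. Rarg had 2 and 3 FLAG peaks, 3 and 2 BRG1, 2 and 3 H3K27ac, and 6 and 3 H3K4me1. The retinoid X receptors, the shared partners with which many nuclear receptors pair, had the same FLAG numbers in both arms at each of the 3 loci, 6 at Rxra, 2 at Rxrb and 5 at Rxrg. Their BRG1 peaks summed to 9 and 10, and their H3K4me1 peaks to 22 and 14, with fewer at each of the 3, as at 51.6% of protein-coding loci. Rxrg had no H3K27ac peak in NanogWT and 1, of 12 tags, in NanogBiD.

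At the thyroid hormone receptor genes FLAG peaks summed to 26 in both arms and BRG1 peaks to 18 and 20. Thrb (chr14:17660261-18038090) had 18 and 17 FLAG peaks, 10 and 12 BRG1, 12 and 9 H3K27ac, and 16 and 13 H3K4me1, and was the member with the greatest loss of H3K27ac peaks. Thra had 8 and 9 FLAG peaks, 8 and 8 BRG1, 6 and 8 H3K27ac, and 8 and 7 H3K4me1. Thra runs into Nr1d1 from the opposite strand, so part of these peaks belong to both loci. The ROR receptors activate and the REV-ERB receptors repress the same elements of the circadian clock, and BRG1 peaks of this group summed to 24 and 52. All 4 members had more in NanogBiD, beside 53.2% of protein-coding loci and 84.8% of those over 100 kb, and most of the added peaks lay in the long genes Rora and Rorb. Rora (chr9:68653786-69388246), the longest member at 734 kb, had 41 and 45 FLAG peaks, 14 and 34 BRG1, 14 and 17 H3K27ac, and 44 and 32 H3K4me1. These 20 added BRG1 peaks were the most of any member, and so were the 12 H3K4me1 peaks it had fewer. Rorb had 6 and 11 FLAG peaks, 2 and 8 BRG1, 2 and 3 H3K27ac, and 6 and 7 H3K4me1. Nr1d1 (REV-ERB alpha) had 5 and 7 FLAG peaks and 6 and 7 BRG1. Nr1d2 (REV-ERB beta) had fewer FLAG peaks in NanogBiD, 5 and 3, with 2 and 3 BRG1, 3 and 5 H3K27ac, and 4 and 2 H3K4me1.

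Receptors that sense fatty acids, oxysterols, bile acids, foreign chemicals and vitamin D form the 9 members of the sensor group, with 18 BRG1 peaks in NanogWT and 29 in NanogBiD. Pparg (chr6:115360951-115490399), the master regulator of fat cell differentiation, had no BRG1 peak in NanogWT and 5 in NanogBiD. Its FLAG peaks numbered 3 and 8, its H3K27ac peaks 1 and 3, and its H3K4me1 peaks 4 and 1. Of the 5 BRG1 summits of Pparg in NanogBiD 1 lay upstream of the gene, and the others 41.6, 77.3, 99.8 and 119.5 kb into it. They were low, at 7, 8, 9, 12 and 11 tags, and FLAG in NanogBiD had a summit within the same region at each. At 99.8 kb the FLAG summit was also the highest of the locus, 17 tags in NanogWT and 34 in NanogBiD. Nr1h4 (FXR, the bile acid receptor) had 5 and 7 FLAG peaks, 2 and 6 BRG1, 3 and 6 H3K27ac, and 7 and 4 H3K4me1, with a highest BRG1 summit of 23 and 43 tags. Nr1i2 (PXR, a sensor of drugs and other foreign chemicals) had no BRG1 and no H3K27ac peak in NanogWT and 2 of each in NanogBiD, at heights of 8 to 12 tags. The remaining sensors differed by at most 2 peaks of any target. Ppara, a regulator of fatty acid oxidation in liver, had 3 FLAG peaks in both arms and 2 and 3 BRG1 peaks, and Ppard had 5 and 7 FLAG and 5 and 6 BRG1 peaks. The oxysterol receptor genes Nr1h2 and Nr1h3 (the LXRs) had 2 FLAG peaks in both arms, with BRG1 at 3 and 2 in Nr1h2 and at 2 in both arms in Nr1h3. Nr1i3 (CAR), a relative of PXR, had 2 and 1 FLAG peaks and 1 BRG1 peak in both arms. Vdr, the vitamin D receptor gene, had 3 FLAG peaks in both arms, 3 and 2 BRG1 peaks and 3 and 5 H3K27ac peaks.

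**Figure D3:**
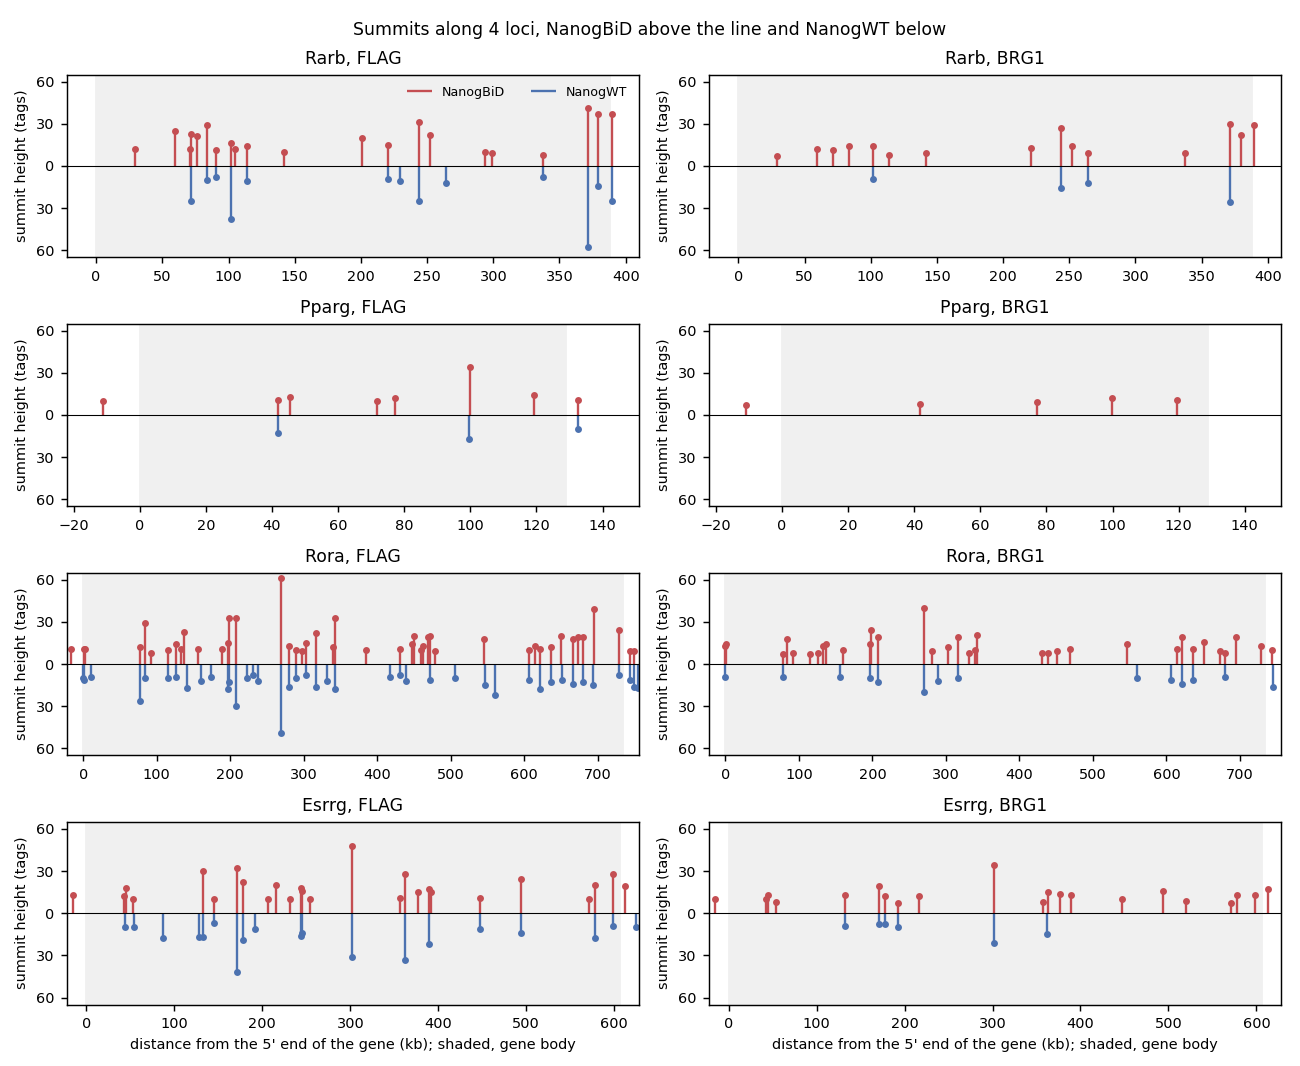
Summits of FLAG (left) and BRG1 (right) along Rarb, Pparg, Rora and Esrrg. The horizontal axis is the distance from the 5′ end of the gene in kb with the gene body shaded, and the height of each line is the summit height in tags, NanogBiD above and NanogWT below. BRG1 summits of NanogWT are few (4 at Rarb, 0 at Pparg, 14 at Rora, 6 at Esrrg), and those added in NanogBiD lie along the whole gene.

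The 9 orphan receptors of the HNF4, testicular receptor, TLX and COUP-TF families held 22 BRG1 peaks in NanogWT and 21 in NanogBiD, and all but Hnf4g are among the members of at most 100 kb, whose BRG1 ratio as a whole was 1.13. Nr2f1 (COUP-TFI) had 2 and 5 FLAG peaks but 3 and 1 BRG1 peaks, and its close relative Nr2f2 (COUP-TFII) had 2 and 5 FLAG and 3 and 5 BRG1 peaks. H3K27ac at these genes numbered 2 and 3 and 3 and 4, and H3K4me1 5 and 5 at both. Nr2e1 (TLX), a gene of neural stem cells, was the single member with BRG1 in NanogWT alone, 2 peaks of 12 and 11 tags, and it had no FLAG and no H3K27ac peak in either arm. Nr2c1, an orphan that binds with Nr2c2 to repress embryonic globin genes, had 6 and 8 FLAG peaks, 5 and 6 BRG1, 5 and 7 H3K27ac, and 5 and 5 H3K4me1. Nr2c2 had 2 FLAG and 2 BRG1 peaks in both arms, 3 and 2 H3K27ac, and 3 and 4 H3K4me1. Nr2f6 had 4 FLAG and 4 BRG1 peaks in both arms, with 5 and 4 H3K27ac. Nr2e3, a regulator of photoreceptor identity, had 2 FLAG and 2 BRG1 peaks in both arms, but in part at different sites. Hnf4a, the liver and gut receptor, had 3 and 1 FLAG peaks and 1 and 1 BRG1 peaks, and Hnf4g had neither FLAG nor BRG1 in either arm, with 1 H3K27ac peak at its start in both, of 9 and 14 tags.

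The NR4A receptors, immediate early genes that are induced without a ligand, had 9 and 13 FLAG peaks and 9 and 11 BRG1 peaks in sum, and 10 H3K27ac peaks in both arms. Nr4a3 had 2 and 4 BRG1 peaks and 5 and 7 H3K4me1 peaks, the largest H3K4me1 gain among the members, while Nr4a1 had 4 and 4 and Nr4a2 3 and 3 BRG1 peaks. Nr6a1 (GCNF) had 4 and 7 FLAG peaks, 4 and 4 BRG1, 3 and 7 H3K27ac, and 11 and 12 H3K4me1, so its gain in H3K27ac came with no gain in BRG1 number. Nr5a1 (SF1), a regulator of steroid-producing glands, had a single FLAG peak, of 11 tags in NanogBiD, and no BRG1 or H3K27ac peak. Nr0b2 (SHP), which acts by binding other nuclear receptors, had 3 and 3 peaks each of FLAG, BRG1 and H3K27ac. Nr0b1 was the barest locus, with 1 H3K4me1 peak of 13 tags in NanogWT and no peak of any other kind in either arm, and no member lacked peaks in all 8 lists.

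At promoters the numbers of members moved little. A BRG1 peak within 2 kb of a start site was present at 29 of the 44 in NanogWT and 32 in NanogBiD, or 65.9% and 72.7%, where 53.9% and 55.5% of protein-coding genes had one. The order depended on the setting, with 23 promoters in each arm at a score of at least 100, 23 and 21 at a height of at least 15 tags, and 25 and 16 among the 20000 highest-scoring peaks. The shares of protein-coding genes given here are those of the full lists. The 5 that had it in NanogBiD only were Nr1h4, Nr2e3, Pparg, Esrrg and Pgr, which is 11.4% of members beside 5.15% of protein-coding genes. Starts of all annotated transcripts were used, for members and background. At Esrrg and Pparg the region lay 389 and 77.2 kb from the 5′ end of the gene. BRG1 was low at Nr1h4 (8 tags) and Pparg (9 tags). The 2 that had it in NanogWT only were Nr2f1 and Vdr, or 4.55% beside 3.61%. FLAG was at 32 and 34 promoters, or 72.7% and 77.3%, where 55.2% and 56.8% of protein-coding genes had it. H3K27ac was at 32 and 36, or 72.7% and 81.8%, beside 57.1% and 59.9%, and H3K4me1 at 38 and 35, or 86.4% and 79.5%, beside 63.3% and 62.0%. H3K27ac was at the promoters of Nr1h4, Nr2e3, Rxrg and Esr2 in NanogBiD only (9.09% of members, beside 4.29% of protein-coding genes) and at none in NanogWT only (beside 1.44%). Promoters of Nr0b1, Nr2e1 and Rarb had H3K4me1 in NanogWT only (6.82%, beside 5.5%), and none had it in NanogBiD only (beside 4.24%). Neither FLAG nor BRG1 was found in either arm at the promoters of Nr0b1, Nr0b2, Nr1i2, Nr1i3, Nr2e1, Nr5a1, Hnf4a and Hnf4g, and BRG1 was also absent from those of Esr1 and Esr2.

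FLAG and BRG1 peaks of both arms were merged into regions and each was placed by the arms in which it had a FLAG and a BRG1 peak. Nuclear receptor loci held 364 such regions. The most common class, 94 regions or 25.8%, had both targets in both arms, where 23.7% of all 93352 regions did. FLAG in both arms with BRG1 in NanogBiD alone was found at 52 regions (14.3% beside 15.2%), and FLAG and BRG1 both in NanogBiD alone at 47 (12.9% beside 11.1%). The reverse, FLAG and BRG1 in NanogWT alone, was found at 4 (1.10% beside 1.55%). Over the 64807 regions at protein-coding loci the shares of these classes, in the same order, were 27.5%, 13.8%, 10.2% and 1.71%. The counts with both targets in NanogBiD alone and in NanogWT alone moved with the peaks admitted. They were 20 and 4 with a score of at least 100, 15 and 1 with a height of at least 15 tags, and 13 and 7 among the 20000 highest-scoring peaks. Shares over all regions are given for the full lists only, so whether members moved differently cannot be read. BRG1 in NanogWT alone without FLAG was found at 15 (4.12% beside 2.39%), which include both BRG1 peaks of Nr2e1.

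**Figure D4:**
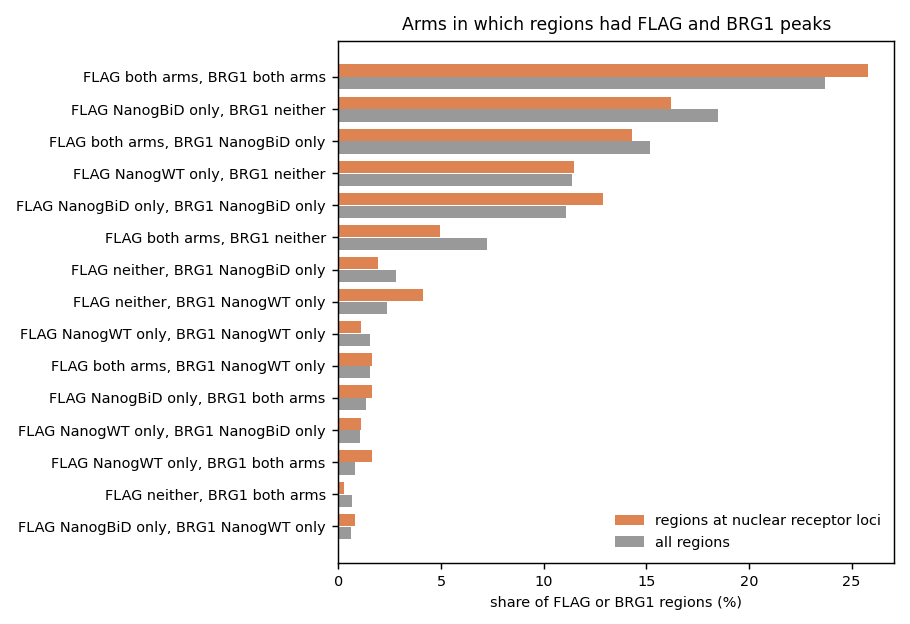
Share of regions in each class of FLAG and BRG1 presence by arm, in percent, for the 364 regions at nuclear receptor loci and for all 93352 regions. The 2 sets follow one another closely, with 12.9% and 11.1% in the class of FLAG and BRG1 in NanogBiD only.

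H3K27ac differed between these classes. Of the 52 regions with shared FLAG and BRG1 in NanogBiD alone, 9 had an H3K27ac peak in NanogWT and 30 in NanogBiD, and 22 (42.3%, beside 31.8% of all such regions) had it in NanogBiD alone. Of the 47 regions with both targets in NanogBiD alone, 2 and 13 had H3K27ac, and 12 (25.5%, beside 22.8%) had it in NanogBiD alone. At the 94 regions with both targets in both arms H3K27ac was present at 87 and 90. H3K4me1 was present at 23 and 26, 13 and 17, and 85 and 78 regions of the same classes. At the 94 shared regions 9 had H3K4me1 in NanogWT alone and 2 in NanogBiD alone (9.57% and 2.13%, beside 10.1% and 6.05% of all such regions). Regions of the class with both targets in both arms were at promoters in 55.3% of cases (beside 49.8%), and those with shared FLAG and BRG1 in NanogBiD alone in 9.62% (beside 14.7%).

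Regions where FLAG was shared and BRG1 was called in NanogBiD alone included some high summits. In an intron of Esr1, 41.2 kb from a start site (chr10:4652202-4654010), FLAG stood at 15 and 27 tags, BRG1 at 0 and 24, H3K27ac at 0 and 20 and H3K4me1 at 21 and 0, where 0 means that no peak was called. In an intron of Rarb 135 kb from its own nearest start and 14.3 kb from that of the neighbouring gene Top2b (chr14:16438509-16440552), FLAG stood at 14 and 37 tags, BRG1 at 0 and 22, H3K27ac at 0 and 19 and H3K4me1 at 15 and 16. Just past the 3′ end of Rarb, within Top2b (chr14:16429066-16431472), the values were 25 and 37 for FLAG, 0 and 29 for BRG1 and 0 and 19 for H3K27ac. Rora held 13 regions of this class, the most of any member. One of them, 197 kb from the nearest start (chr9:68851957-68853191), had FLAG at 13 and 33 tags, BRG1 at 0 and 24 and H3K27ac at 0 and 17. Not every such region had the acetyl mark. In an intron of Thra (chr11:98746776-98748855) FLAG stood at 32 tags in both arms and BRG1 at 0 and 28, with no peak of either histone mark.

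Regions with FLAG and BRG1 in NanogBiD alone were found at 21 of the 44 loci, or 47.7%, where 26.2% of protein-coding loci had one. Members are longer than most genes. Of the members over 100 kb, 9 of 11 had such a region (81.8%, beside 67.8% of protein-coding genes of that length), and of the shorter members 12 of 33 (36.4%, beside 20.9%). Rora had 8, Esrrg 7, Rarb 4, and Nr3c2, Pparg and Esr1 3 each. Rorb, Nr1h4, Nr2f2 and Nr3c1 had 2, and Nr1i2, Nr2e3, Nr4a3, Rara, Rarg, Rxra, Rxrb, Rxrg, Thrb, Ppard and Esr2 had 1. Regions with FLAG and BRG1 in NanogWT alone were found at 4 loci, those of Rora, Rxra, Rxrb and Vdr, or 9.09%, where 6.5% of protein-coding loci had one. By length they were found at 1 of 11 members over 100 kb (9.09%, beside 18.9%) and 3 of 33 shorter ones (9.09%, beside 4.9%).

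Ranked by the lower of the FLAG and BRG1 heights, the leading regions of NanogBiD lay at Ppard, Rxra and Rxrb. The Ppard region (chr17:28217223-28218442) had FLAG at 27 tags, BRG1 at 22, H3K27ac at 27 and H3K4me1 at 14 in NanogBiD, with no peak of the 4 targets in NanogWT. It lies 14.8 kb upstream of Ppard and inside Def6, 0.834 kb from a start site of that gene. The Rxra region (chr2:27769880-27771120), downstream of the gene, had FLAG at 22 and BRG1 at 24 tags and no peak of either mark. The Rxrb region (chr17:34026981-34028560), 3.87 kb upstream of Rxrb and at the start of its neighbour H2-Ke6, had FLAG at 20 and BRG1 at 18 tags and again no mark.

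Regions of lower rank were found in or near Nr2e3, Thrb, Rara, Rora, Rarb and Esrrg. In Nr2e3, 1.19 kb from its start (chr9:59958982-59960094), FLAG stood at 16, BRG1 at 18 and H3K27ac at 14 tags in NanogBiD, where NanogWT had no peak of these, and H3K4me1 at 25 and 23. An intron of Thrb (chr14:17696683-17697911) had FLAG at 27, BRG1 at 13, H3K27ac at 12 and H3K4me1 at 14 tags, all in NanogBiD alone, although Thrb as a whole had fewer FLAG and H3K27ac peaks in that arm. Upstream of Rara by 2.46 kb (chr11:98924790-98926588), FLAG stood at 16, BRG1 at 13 and H3K27ac at 12 tags. Introns of Rora (chr9:68790593-68791401, 23 and 14 tags of FLAG and BRG1) and Rarb (chr14:16566770-16567654, 22 and 14 tags) had no mark in either arm, and in an intron of Esrrg (chr1:187985148-187985900, 15 and 14 tags) the H3K27ac summit of 9 tags and the H3K4me1 summit of 12 tags were in NanogWT alone.

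The 4 regions of NanogWT kept most of their marks. At Rxrb (chr17:34023968-34025337), 0.107 kb from a start of the neighbouring Ring1, FLAG stood at 13 and BRG1 at 15 tags in NanogWT, with H3K27ac at 34 and 27 and H3K4me1 at 19 and 18 in NanogWT and NanogBiD. In an intron of Rxra (chr2:27755931-27757399) FLAG stood at 15 and BRG1 at 11 tags, with H3K27ac at 22 and 19 and H3K4me1 at 31 and 18. At Vdr (chr15:97907824-97908508), 0.099 kb from a start, FLAG stood at 7 and BRG1 at 11 tags, with H3K27ac at 9 and 11 and H3K4me1 at 16 and 13. The Rora region (chr9:69212828-69214824) was the exception, with FLAG at 22, BRG1 at 10, H3K27ac at 13 and H3K4me1 at 15 tags in NanogWT and no peak in NanogBiD.

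The sequences around the FLAG summits of these leading regions are shown because the regions differ between the arms, and because many nuclear receptors recognise the letters AGGTCA. Each is read from the plus strand of the RefSeq assembly of build mm10 (GRCm38), from 100 bases before to 100 after the summit. Stretches annotated as untranslated were left out, which shortened the Rxrb sequence to 138 bases and removed the window at Ring1. Capitals mark AGGTCA or its reverse complement TGACCT.
Ppard, NanogBiD only, chr17:28217767-28217967: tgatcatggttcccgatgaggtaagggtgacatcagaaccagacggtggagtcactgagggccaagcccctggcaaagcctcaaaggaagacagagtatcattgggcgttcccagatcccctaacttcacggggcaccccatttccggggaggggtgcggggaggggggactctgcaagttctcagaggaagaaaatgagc
Rxra, NanogBiD only, chr2:27770435-27770635: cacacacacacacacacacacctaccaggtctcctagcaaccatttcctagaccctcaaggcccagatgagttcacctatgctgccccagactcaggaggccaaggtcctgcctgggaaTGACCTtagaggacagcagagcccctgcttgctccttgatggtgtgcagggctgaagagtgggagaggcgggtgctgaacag
Rxrb, NanogBiD only, chr17:34027864-34028001: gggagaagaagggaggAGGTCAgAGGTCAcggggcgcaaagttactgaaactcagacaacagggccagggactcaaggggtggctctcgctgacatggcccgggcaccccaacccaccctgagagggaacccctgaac
Rxra, NanogWT only, chr2:27756996-27757196: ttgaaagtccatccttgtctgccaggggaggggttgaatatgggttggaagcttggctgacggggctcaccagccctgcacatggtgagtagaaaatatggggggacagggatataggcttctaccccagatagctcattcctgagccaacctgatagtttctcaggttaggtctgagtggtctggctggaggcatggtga
Rora, NanogWT only, chr9:69213348-69213548: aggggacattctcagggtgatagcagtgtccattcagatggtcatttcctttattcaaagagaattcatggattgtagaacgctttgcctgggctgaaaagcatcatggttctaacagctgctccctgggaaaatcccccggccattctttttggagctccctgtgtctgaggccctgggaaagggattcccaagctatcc

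The Rxrb window holds 2 copies of AGGTCA on the plus strand with 1 base between them, the Rxra window of NanogBiD holds 1 on the minus strand, and the other 3 hold none. Over the FLAG windows of 201 bases at nuclear receptor loci, AGGTCA was found on either strand in 20 of 227 (8.81%) in NanogWT and in 27 of 290 (9.31%) in NanogBiD. Over all FLAG windows the shares were 8.42% and 9.39%, so the shares at nuclear receptor loci were close to these. The direct repeat with 1 base between was found in 0 of 227 and 1 of 290 windows of these loci and in 3 of 58935 and 8 of 74770 windows overall. That 1 window is the Rxrb window, which is also among the 8. The repeat was chosen after values were seen, so these counts cannot measure enrichment. TGACTCA, the letters of an AP-1 site, was in 18 (7.93%, beside 11.3%) and 36 (12.4%, beside 14.0%). ATGCAAAT, the octamer read by OCT4, was in 5 (2.2%, beside 3.29%) and 6 (2.07%, beside 4.39%), and CATTGT, a core of SOX sites, in 27 and 32, where 13.0% and 14.9% of all windows had it. A match of letters is a description of the window and not a measured site.

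At regions called in both arms the heights could be set side by side. The median log2 ratio of summit height, NanogBiD over NanogWT, was 0.19 for FLAG over 169 regions (quartiles -0.12 and 0.55), 0.1 for BRG1 over 109 (-0.17 and 0.44), 0.08 for H3K27ac over 117 (-0.13 and 0.28) and -0.14 for H3K4me1 over 186 (-0.36 and 0.08). Over all shared regions of the lists the medians were 0.15, 0.14, 0.08 and -0.18. The medians were small beside the spread between regions, and single regions stood out. In an intron of Esr1 (chr10:4885265-4887146) BRG1 stood at 10 tags in NanogWT and 31 in NanogBiD, a log2 ratio of 1.63, while FLAG there was 36 and 43 and H3K27ac 20 and 21. In an intron of Rora 268 kb from the nearest start (chr9:68921561-68925040) BRG1 stood at 20 and 40 tags, H3K27ac at 11 and 25, FLAG at 49 and 61 and H3K4me1 at 27 and 24. Rarb had ratios in both directions, with FLAG at 10 and 29 tags (1.54) in one region (chr14:16734203-16736223) and at 38 and 16 (-1.25) in another (chr14:16716655-16717901).

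**Figure D5:**
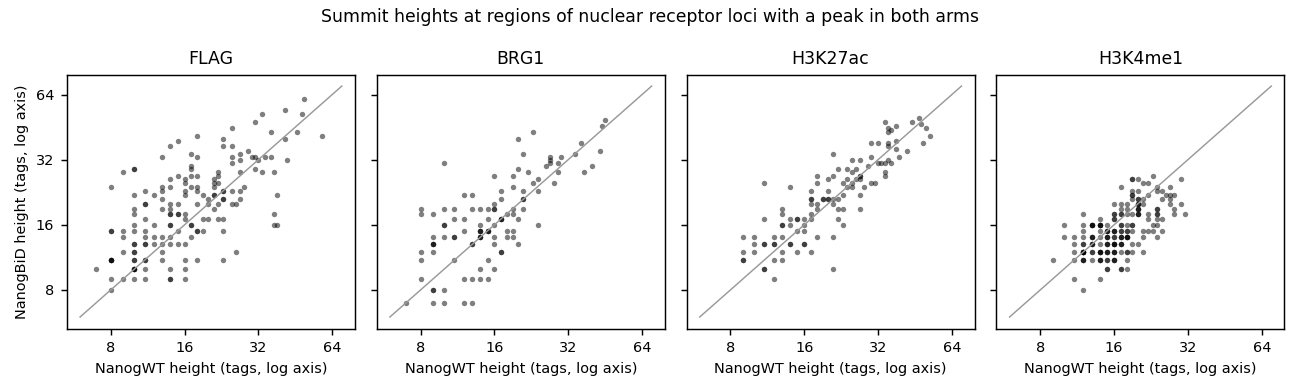
Summit heights in tags at regions of nuclear receptor loci with a peak in both arms, NanogWT on the horizontal and NanogBiD on the vertical axis, both log axes. Each point is a region and the line marks equal heights. Points of FLAG scatter widely around the line (median log2 ratio 0.19), and those of H3K4me1 lie mostly below it (median -0.14).

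Genes of the proteins with which nuclear receptors work were counted in the same way. Over 20 coregulator genes, which encode coactivators, corepressors and their enzymes, FLAG peaks numbered 85 and 116 with 14 loci having more and 3 fewer in NanogBiD. Their BRG1 peaks numbered 67 and 88, with 16 having more and 1 fewer, their H3K27ac peaks 70 and 77 with 8 and 5, and their H3K4me1 peaks 128 and 87 with 3 and 16. Of protein-coding loci with a peak, 50.2% had more and 17.6% fewer FLAG peaks, 53.2% and 12.7% BRG1, 37.4% and 17.4% H3K27ac, and 19.7% and 51.6% H3K4me1. These shares were not matched to the lengths of the coregulator genes, and among protein-coding genes over 100 kb 84.8% had more BRG1 peaks. Ncoa2, a p160 coactivator gene, had 4 and 10 FLAG and 3 and 4 BRG1 peaks, and Ncoa6, also a coactivator gene, 2 and 7 FLAG and 4 and 5 BRG1 peaks. The corepressor gene Ncor1 had 7 and 11 FLAG and 5 and 6 BRG1 peaks. Over 15 genes of retinoid uptake, synthesis and breakdown, FLAG peaks numbered 36 and 46 (7 loci with more, 3 with fewer), BRG1 27 and 34 (7 and 3), H3K27ac 28 and 33 (4 and 1) and H3K4me1 62 and 46 (1 and 9). A FLAG, BRG1 or H3K27ac peak was present at 14 of these loci, so the 7 with more FLAG and the 7 with more BRG1 were near the shares of all protein-coding loci with a peak. The genes of retinoic acid synthesis were mixed for BRG1, with 0 and 1 peaks at Aldh1a1, 1 and 3 at Aldh1a2, 2 and 5 at Aldh1a3, 4 in both arms at Rdh10 and 2 in both arms at Rdh11. Of the genes of its breakdown, Cyp26a1 had 2 and 0 BRG1 peaks, Cyp26c1 3 and 1 and Cyp26b1 0 and 1.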

How the data were processed

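The 8 CUT&Tag libraries were each a merged set, 1 per target and arm, grouped by the labels. Per the submitters' processing notes and the study's methods, the authors trimmed reads with Trim Galore 0.6.4, aligned them to mm10 with Bowtie2 2.4.5, filtered them with SAMtools 1.16.1, merged replicates and called peaks with MACS 1.4.2, keeping 1 of duplicate tags and naming no control. The study states a general minimum of repeats for its experiments, and how many went into each list is not given in the sources used here. In the deposited peak lists the score is the peak caller's significance score, with a lowest value of 50. The signal of the deposited summit lists is the whole-number tag pileup at the summit. Neither was scaled to depth, and depth is unknown.

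Peaks were counted when they overlapped a locus by at least 1 bp, with gene bodies from the GENCODE annotation of mm10. FLAG and BRG1 peaks of both arms that overlapped or touched were merged into regions. Python 3.11.15 was used with numpy 2.4.6, pandas 2.3.3, scipy 1.17.1 and matplotlib 3.10.9, and counting, merging and intervals were tested on simulated data. Members and gene lists were chosen with earlier results of these data known. Named in full were members with regions of FLAG and BRG1 in 1 arm only, up to 10 by the lower of the 2 heights, and for each target the 3 loci with the largest gain and loss. The split at 100 kb, the direct repeat, the regions with shared FLAG, the regions named by height ratio, and the coregulator and retinoid genes named singly were chosen after values were seen. Of the regions these rules name, 2 are not reported here. Alternatives were a score of at least 100, a height of at least 15 tags, the 20000 highest-scoring peaks, flanks of 0 or 50 kb, promoters of 1 kb, merging across gaps of 500 bp, assigning a peak by its summit, leaving out the member with the most peaks, and members of at most 100 kb.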

Additional observations from a re-analysis of the deposited data

Results flagged for a closer look

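H3K4me1 at nuclear receptor loci ran opposite to FLAG and BRG1 in the full lists. Its ratio of peak numbers, NanogBiD over NanogWT, was 0.833, where FLAG had 1.28 and BRG1 1.59, and the 95% counting intervals of the 3 ratios lay on opposite sides of 1. The difference between targets was not tested, since each ratio rests on 1 merged library per arm. Over all protein-coding loci the ratios were 0.798, 1.24 and 1.56. The contrast did not hold among the 20000 highest-scoring peaks of each list, where the ratio was 1.09 for H3K4me1, 1.13 for FLAG and 0.878 for BRG1.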

How the results depend on the processing

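Across the alternatives, 26 values of the 4 ratios stayed close to those reported, 4 moved and 2 reversed, and of the counts 51 stayed within 1.5 times and 19 did not. Most of the movement came when lists were cut to their 20000 highest-scoring peaks, which by construction sets the lists of both arms to one size. There the ratio was 0.878 for BRG1 and 1.09 for H3K4me1, both reversed, and 1.0 for H3K27ac. Loci with more peaks in NanogBiD numbered 13 (FLAG), 4 (BRG1), 8 (H3K27ac) and 16 (H3K4me1), and those with fewer 7, 15, 8 and 13. In that setting 24.3% of protein-coding loci had more and 29.8% fewer FLAG peaks, and 17.2% more and 40.4% fewer BRG1 peaks. The shares were 17.6% and 19.1% for H3K27ac and 33.5% and 25.3% for H3K4me1. Regions with FLAG and BRG1 in NanogBiD alone numbered 13 and in NanogWT alone 7, and 16 promoters had BRG1 in NanogBiD beside 25 in NanogWT. For regions and promoters, background shares are given for the full lists only. With a score of at least 100 the H3K4me1 ratio was 0.631, 4 loci had fewer BRG1 and 13 more H3K27ac peaks, and 20 regions were of NanogBiD alone. With heights of at least 15 tags the H3K4me1 ratio was 0.638, 11 loci had more H3K27ac peaks, regions of NanogBiD alone numbered 15 and of NanogWT alone 1, and 21 promoters had BRG1 in NanogBiD beside 23 in NanogWT. Without a flank 14 loci had more H3K27ac peaks, and with a flank of 50 kb 7 regions were of NanogWT alone. Over members of at most 100 kb, an alternative chosen after seeing the data, the BRG1 ratio was 1.13. Why the ranked lists differ was not tested, and depth per library, which would bear on it, is unknown. No paired analysis was possible because the labels give 1 library for every target and arm.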
